A study of Mus musculus with 12 samples.

Results

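The livers of Akp3-/- mice were compared with those of wild-type mice after both had been given the pentapeptide IIAEK. The comparison takes 6 of the 12 arrays of the series: the 3 wild-type and the 3 knockout arrays whose titles give 600 mg/kg body weight per day of IIAEK. The mice were male and 7 weeks old. IIAEK was given by mouth once a day for 14 days in carboxymethylcellulose sodium salt at 5 g/L, and liver was taken after 8 h of fasting. The titles and the study design give 14 days, whereas another label of the IIAEK groups gives the same number in weeks; 14 days was used. The other 6 arrays, 3 per genotype, came from mice given the carboxymethylcellulose vehicle without peptide, and they served as a second comparison of the genotypes that shares no array with the first. The strain, the breeding of the wild-type mice relative to the knockouts and any pooling of animals are not stated in the labels. Each group therefore rests on 3 samples, and the p-values measure the spread between these samples.

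Akp3 encodes one of the alkaline phosphatases of the mouse intestine, a brush border protein (IAP) that takes phosphate groups off bacterial lipopolysaccharide, nucleotides and other substrates in the gut lumen. IIAEK, also called lactostatin and named by its residues (isoleucine, isoleucine, alanine, glutamate, lysine), is a peptide released from milk beta-lactoglobulin and is known for lowering serum cholesterol in rodents. The liver receives the portal blood from the intestine, makes and clears cholesterol and bile acids, and carries most of the enzymes that oxidise and conjugate foreign compounds. A knockout of a gut enzyme can be read in the liver only through other genes, because the liver does not normally use Akp3.

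Gene levels are given as log2 signal relative to the 75th percentile of the same array, so a level of 0 is a spot as bright as that percentile. A difference is always knockout minus wild type on this log2 scale. Neither of the 2 Akp3 probes was well above background on any of the 12 arrays, nor was the probe of Alppl2, and that of Alpi was above it on 1 array and on 0 of these 6, so the targeted gene checks no label here. Alpl, the tissue-nonspecific phosphatase that liver does express, was above background on all 12 arrays and was higher by 0.10 in the knockout (SE 0.18, adjusted p = 0.77). The liver label held: all 12 hepatocyte markers were tested, their median difference was -0.11, and Alb, which encodes serum albumin, stood at 9.2 to 9.5 on the 6 arrays. Correlations between arrays of a group were 0.988 to 0.991 for the wild type and 0.991 to 0.995 for the knockout over 25581 genes, and the median SD per gene was 0.190 and 0.156.

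Wild-type array 3 stood apart from the other wild-type arrays in genes that differ between male and female liver. Cyp2b13, a cytochrome P450 known from female liver, stood at -4.11, -4.51 and 5.45 in the wild type and at -2.86, -3.54 and -2.08 in the knockout. Elovl3, a fatty acid elongase known from male liver, stood at 5.49, 6.17 and 0.09 against 4.96, 5.35 and 5.12. Cyp4a12a, a male-biased hydroxylase, stood at 5.23, 4.84 and -1.72 against 3.22, 4.02 and 3.56. In each of these genes the third wild-type array was the extreme one of all 6. Xist was above background on 0 of the 12 arrays, and Ddx3y, Kdm5d, Eif2s3y and Uty were above it on all 12, so the sex label itself held. The same array also had the highest level of red cell genes, a median of 1.43 above their mean over the 12 arrays against 0.08 and -0.37 in the other wild-type arrays. Of the 24 male-biased genes tested, 2 were lower in every knockout array than in every wild-type array, and without that array 15 were (background 15.2% with it and 20.4% without it), with the median difference moving from 0.02 to -0.50. The 17 female-biased genes tested had a median difference of -0.33 with it and 0.27 without it.

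Across 25581 genes, 9 passed an adjusted p under 0.05 (limma, Benjamini-Hochberg), 0.0352% of those tested, and 5242 (20.5%) had an unadjusted p under 0.05. A larger number were separated without passing that adjustment: the 3 knockout arrays all lay above the 3 wild-type arrays in 3371 genes (13.2%) and all below them in 3891 (15.2%), 28.4% in all. Of all genes, 47.1% had a difference above 0. The absolute difference was over 1 in 578 genes (2.26%). The counts for gene groups further on are to be read against these shares. Counts without wild-type array 3 are to be read against 17.7% higher and 20.4% lower without overlap, the shares of all genes without that array. Without wild-type array 3, 4 genes passed (0.0156%), 3 of them among the 9: Pam, Ugt1a10 and the transcript U79523. The genotype effect under IIAEK also rested on other single arrays: none passed without wild-type array 1 (3754 at an unadjusted p under 0.05) or without knockout array 1 (3226). Without wild-type array 2 there were 2 genes, none of the 9, without knockout array 2 there were 6, with 3 of the 9 (Pam, U79523 and AK040229), and without knockout array 3 there were 20, with 2 of the 9 (Pam and U79523). Replicate 1 of each group was on slide 1 and replicates 2 and 3 on slide 2. With the slide as a block, Pam and U79523 passed and the other 7 did not. These 2 may not be independent readings, which was not tested. Among the wild-type vehicle arrays both were highest on array 3, as described below. U79523, Utp14b, AK040229 and ENSMUST00000153653 entered the test only through the genotype in which they were above background, so they had to differ to be tested; with probes above background on every array, the other 5 passed.

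Of the 9 genes, 5 rose in the knockout (0.0195% of those tested); after quantile normalization 6 passed, 4 higher and 2 lower. Pam, the enzyme that amidates peptide hormones, stood at -2.59, -2.70 and -2.72 in the wild type and at 0.18, -0.34 and -0.06 in the knockout. Every knockout array was higher than every wild-type array by over 2 units, a rise of 2.60 (SE 0.15, 6.05-fold, adjusted p = 0.0147); a second, dimmer probe of Pam gave 0.45. U79523, a transcript the array names only by its sequence accession, stood at -5.51, -5.72 and -6.16 against -2.07, -2.76 and -2.57. U79523 was not well above background on any wild-type array and was above it on all 3 knockout arrays. Its rise is therefore at least 8.35-fold (adjusted p = 0.0232), where the lower level is taken per array as the dimmest signal still well above background. It entered the test only through the knockout, so this adjusted p rests on a transcript chosen by that difference.

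Slc2a4, the insulin-responsive glucose transporter GLUT4 known from muscle and fat, stood at -3.73, -3.30 and -3.40 in the wild type and at -1.74, -1.61 and -1.74 in the knockout. It rose by 1.78 (SE 0.15, adjusted p = 0.0323), with a gap between the groups far wider than the spread within either. Ugt1a10, one of the glucuronosyltransferases that conjugate bilirubin, bile acids and drugs, stood at -0.64, -0.94 and -0.03 against 2.35, 2.0 and 2.27, a rise of 2.75 (SE 0.24, 6.71-fold, adjusted p = 0.0323). Lad1, which encodes the anchoring-filament protein ladinin, stood at 0.23, -0.25 and -0.17 against 1.60, 1.80 and 2.0, a rise of 1.86 (SE 0.17, adjusted p = 0.0363) that its other probe gave as 1.89. In these 3 genes too the groups did not overlap. None of the 3 passed with the slide as a block.

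The remaining 4 fell (0.0156%), and none of them passed with the slide as a block. Ces1d, a carboxylesterase of the hepatocyte's endoplasmic reticulum that hydrolyses triglycerides and ester drugs, stood at 5.99, 6.11 and 6.06 in the wild type and at 4.81, 4.65 and 4.75 in the knockout. The groups lay apart by several times the spread within either, and it fell by 1.32 (SE 0.11, 2.49-fold, adjusted p = 0.0323). Utp14b, a retrogene whose product works in small-subunit ribosome assembly, stood at -4.36, -3.89 and -4.12 against -5.69, -5.80 and -5.73 and fell by 1.61 (adjusted p = 0.034). It was not well above background on any knockout array, which makes the fall at least 3.00-fold. The transcripts AK040229 and ENSMUST00000153653, for which the arrays give no gene symbol, fell in the same way, below background on all 3 knockout arrays: at least 1.70-fold from a wild-type mean of -4.97 to a knockout mean of -6.95 (adjusted p = 0.0323) and at least 2.05-fold from -4.70 to -7.53 (adjusted p = 0.034). Utp14b and these 2 transcripts entered the test only through the wild type, where they were above background. Their adjusted p-values therefore rest on genes chosen by that difference. With probes above background on every array, they were left out. The next gene among those lower in the knockout, XR_378711, was lower by 1.22 and did not pass (adjusted p = 0.0793).

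**Figure D1:**
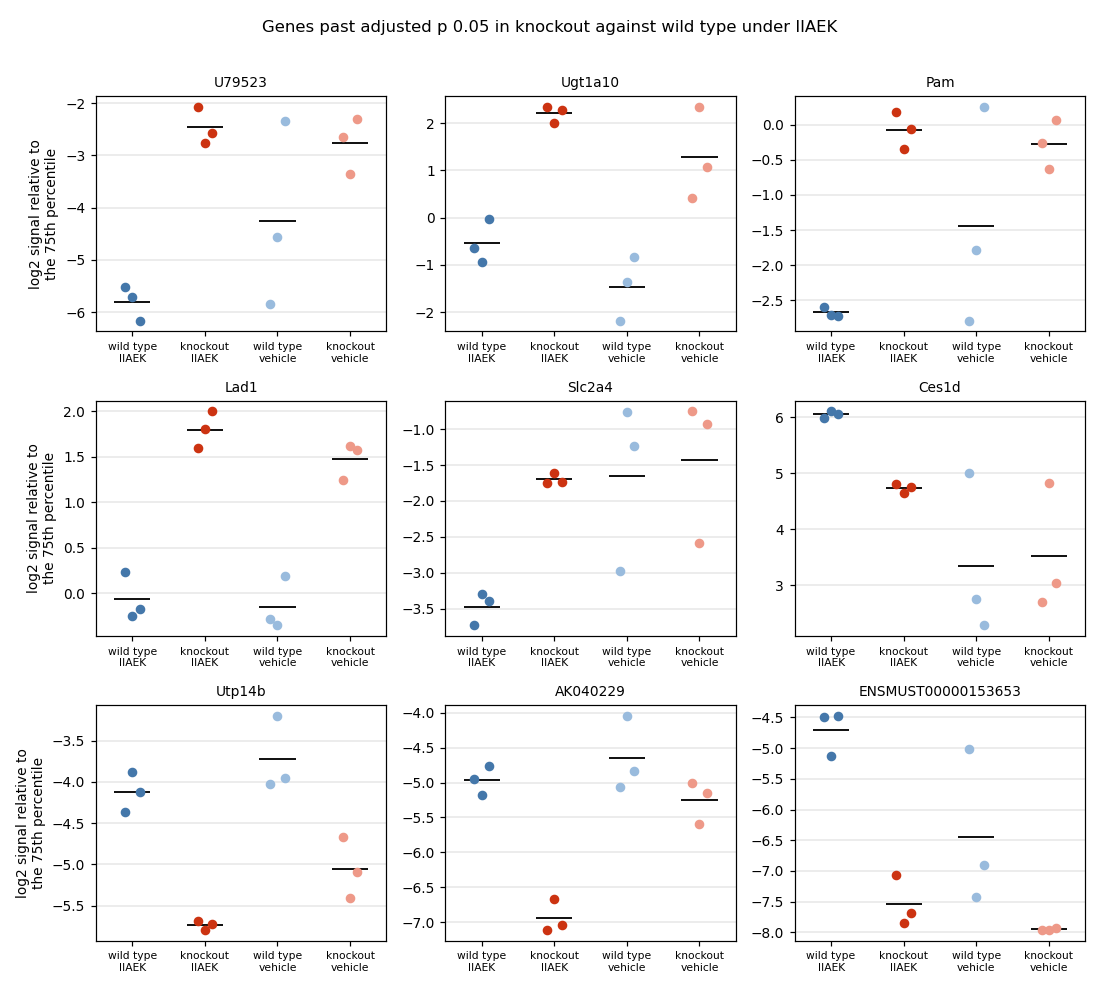
Level of each of the 9 genes past the adjusted threshold on each of the 12 arrays, as log2 signal relative to the array's 75th percentile (vertical axis), with arrays grouped by genotype and treatment along the horizontal axis and bars at group means. Under IIAEK the 3 knockout points lie wholly on one side of the 3 wild-type points in every panel; under vehicle they do so for Ugt1a10, Lad1, Utp14b and ENSMUST00000153653.

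Genes on chromosome 1, which carries Akp3, made up 4 of the 6 called genes that have a chromosome in the mouse gene table used (Slc2a4 lies on chromosome 11 and Ces1d on chromosome 8). Chromosome 1 held 838 tested genes, and the other autosomes and X held 360 to 1241 each. One of the 4, Utp14b, entered the test only through the wild type, where it was above background. Counted in tested genes along the chromosome, Utp14b lies 35 places before Akp3, Ugt1a10 13 places after it, Pam 71 and Lad1 185 after it, among 838 tested. Ren1, the kidney renin gene, lies 155 places after Akp3, and stood at -4.50, -5.38 and -4.58 in the wild type against -2.84, -3.69 and -2.89 in the knockout. The groups did not overlap, but the difference of 1.68 did not pass (adjusted p = 0.133). Ren1 was not above background on every wild-type array and entered the test only through the knockout, where it was higher. Its difference is therefore limited by the background and ranged from 0.55 to 1.95 over the alternative settings. Ren2, its duplicate found in some inbred strains, was listed as a separate probe at 0.42, -3.68 and -0.34 against 2.20, 1.45 and 2.43 (difference 3.22, adjusted p = 0.178). Ren1 and Ren2 are near-identical, so either probe may read both.

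Under IIAEK alone, the genes next to Akp3 stood apart about as often as all genes tested. Of the 15 tested genes on either side, 2 were higher and 7 lower in every knockout array than in every wild-type array. That is 9 of 30, where 28.4% of all genes stood apart (13.2% higher, 15.2% lower). An unadjusted p under 0.05 (limma) was found in 6 of the 30, against 20.5% of all genes. Only Ugt1a10 passed the adjusted threshold, and the median difference of the 30 was -0.01. Kcnj13, a potassium channel gene, was lower by 0.73, the small RNA Scarna6 lower by 0.86, and Usp40, a deubiquitinase, lower by 0.44, with adjusted p of 0.136, 0.171 and 0.167. The other Ugt1a genes tested, Ugt1a6a and Ugt1a6b, differed by 0.23 and -0.06 with overlapping groups. The Ugt1a genes have their own first exons and share the remaining ones, so a probe in the shared exons reads several of them. Genes whose groups stood apart in the same direction under IIAEK and under vehicle made up 2.63% of chromosome 1 genes, within the 1.5% to 3.75% of the other chromosomes. Among the 30 genes next to Akp3 there were 3 such genes: Ugt1a10, higher, and Eif4e2 and Usp40, lower. Of all genes tested, 1.17% were higher and 2.02% lower under both treatments. Genes that stood apart in this way with a difference over 1 under both treatments numbered 4 on chromosome 1 and at most 2 on any other.

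**Figure D2:**
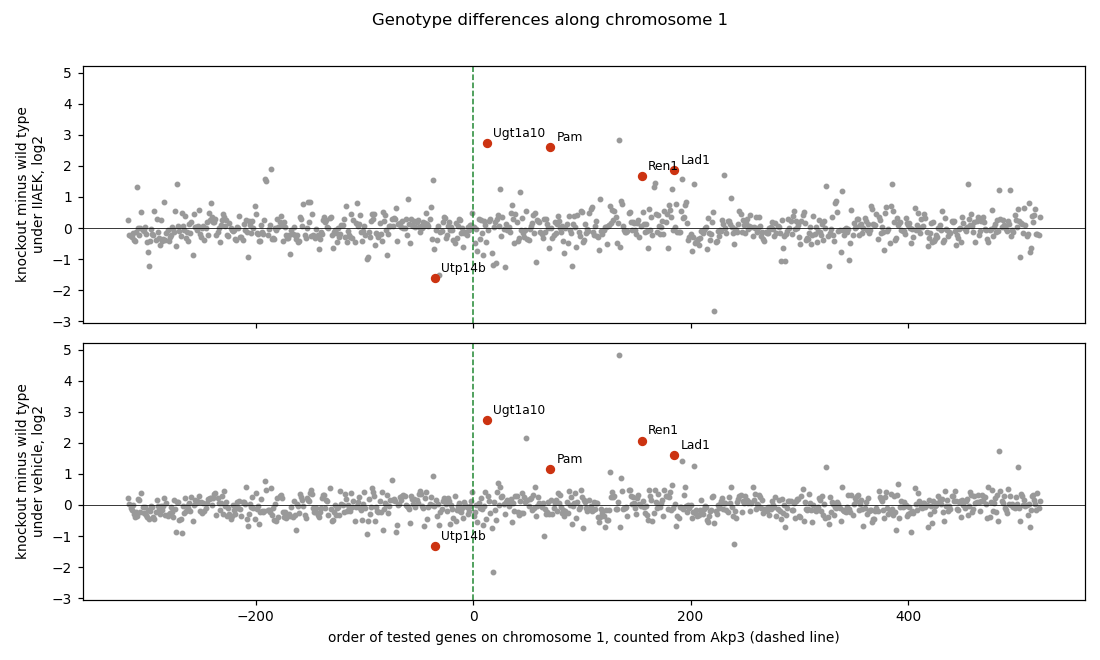
Knockout minus wild type difference (log2, vertical axis) of the tested chromosome 1 genes in their order along the chromosome, counted in genes from Akp3 (horizontal axis), under IIAEK and under vehicle. Utp14b at -1.61 lies before Akp3, and Ugt1a10 at 2.75, Pam at 2.60, Ren1 at 1.68 and Lad1 at 1.86 lie after it; most genes lie near 0.

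Genes of mitosis stood higher in the knockout livers as a group, although none passed the adjusted threshold. All 26 that were listed were tested, all 26 were higher (Ndc80 was at -0.04 with normexp background correction), and in 23 the groups did not overlap (background 13.2%); 25 had an unadjusted p under 0.05 in this direction, against 9.81% of all genes. The median difference was 1.21, against -0.02 over all genes tested, and ranged from 0.18 for the kinetochore gene Ndc80 to 2.15 for Cdc20. Without wild-type array 3 the median was 1.2 and 24 did not overlap (background 17.7%). With normexp background correction it was 0.81. The separate slides, which hold replicate 1 and replicates 2 and 3, gave medians of 1.60 and 1.0.

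Cdc20, the activator of the anaphase-promoting complex, stood at -0.54, 0.38 and -1.0 in the wild type and at 1.80, 2.09 and 1.39 in the knockout. The difference was 2.15 (SE 0.35, adjusted p = 0.116), with every knockout array above every wild-type one. Ccnb2, a B-type cyclin that drives entry into mitosis, stood at -0.79, -0.16 and -0.96 against 0.80, 1.03 and 0.57. Nuf2, a kinetochore subunit, had the smallest p of the 26 and stood at -3.45, -3.07 and -3.11 against -1.72, -1.67 and -2.20, a difference of 1.35 (SE 0.18, adjusted p = 0.115). Cdca8, which encodes borealin of the chromosomal passenger complex, was higher by 1.16 (adjusted p = 0.115). Aspm, a spindle-pole gene that is not among the 26, was higher by 1.42 (adjusted p = 0.0777). Mki67, the proliferation marker Ki-67, was higher by 1.13. The values of Ccnb2, Aspm and Mki67 were picked out after they had been seen.

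Promoters of mitotic genes often carry CCAAT boxes, bound by NF-Y, and the cell cycle homology region TTTGAA (CHR), bound by the DREAM and MuvB complexes. RefSeq promoters (GRCm38.p6) were found for 21 of the 26 genes and searched over the 250 bases before the start, on both strands, for CCAAT or its complement ATTGG and for TTTGAA or its complement TTCAAA; neither motif contains the other. CCAAT was found in 17 of 21 genes (81%) against 37.5% of 27025 genes with a promoter in the table, and TTTGAA in 8 (38.1%) against 18.3%. Those 27025 genes are not limited to the genes tested here. CCAAT was also above that share in the circadian clock genes described below, at 63.6% of core clock and 50% of output genes. TTTGAA was found in 0 of either. The promoters of Ccnb2 and Cdc20, 2 genes that hold both motifs, and of Nuf2, which has the smallest p of the 26 and holds neither in this window, are shown in the direction of transcription. Capitals mark matches to either motif. They are chr9:70421555-70421804, chr4:118437344-118437593 and chr1:169531465-169531714, all on the minus strand.
Ccnb2: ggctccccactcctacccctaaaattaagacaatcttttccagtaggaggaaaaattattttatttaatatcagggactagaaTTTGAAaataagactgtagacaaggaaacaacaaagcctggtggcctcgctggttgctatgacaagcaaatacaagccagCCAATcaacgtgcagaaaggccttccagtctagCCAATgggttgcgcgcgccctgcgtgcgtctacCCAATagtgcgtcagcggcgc
Cdc20: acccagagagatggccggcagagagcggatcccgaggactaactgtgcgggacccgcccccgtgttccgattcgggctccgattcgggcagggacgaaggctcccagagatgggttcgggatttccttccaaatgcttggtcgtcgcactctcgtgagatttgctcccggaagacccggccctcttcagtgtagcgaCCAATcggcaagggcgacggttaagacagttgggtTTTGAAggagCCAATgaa
Nuf2: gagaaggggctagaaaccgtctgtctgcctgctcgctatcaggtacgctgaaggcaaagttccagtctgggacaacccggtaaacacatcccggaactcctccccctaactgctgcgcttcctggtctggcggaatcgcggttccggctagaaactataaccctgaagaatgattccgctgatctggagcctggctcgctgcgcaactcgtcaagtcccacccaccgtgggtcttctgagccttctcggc
A match describes the letters only; binding was not measured.

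Genes of DNA replication and S phase differed less. Of 24 tested, 20 were higher and 4 lower, and the median was 0.29. The groups stood apart in 8 higher and 1 lower (background 13.2% and 15.2%). Ccne1, the cyclin of the entry into S phase, was higher by 0.90 (adjusted p = 0.115) and Pole, the leading-strand polymerase, by 0.83 (adjusted p = 0.144). Pola1, the polymerase that primes replication, was lower by 0.44.

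Genes of stellate cells, fibroblasts and extracellular matrix were also higher. Of 29 tested, 27 were higher and 2 lower, and 18 did not overlap (background 13.2%), with a median difference of 0.75. That median was 0.71 without wild-type array 3 and 0.49 without knockout array 2. Col1a1, the main chain of type I collagen, stood at -1.39, -1.01 and -1.71 in the wild type and at 0.90, 2.33 and -0.03 in the knockout, a difference of 2.44 (SE 0.55, adjusted p = 0.149). The knockout arrays spread over more than 2 units among themselves while the wild-type arrays lay within 1. Loxl1, a collagen and elastin cross-linker, stood at -3.17, -3.31 and -3.66 against -1.63, -0.70 and -2.29, and Reln, a glycoprotein of quiescent stellate cells, at 2.03, 2.19 and 2.22 against 2.76, 2.95 and 2.63; both groups stood apart, and neither gene passed (adjusted p = 0.14 for each). In whole liver, more cells of a type and more RNA per cell cannot be told apart.

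Lymphocyte markers were uneven. Of 9 B cell genes tested, 8 were higher and 5 did not overlap (background 13.2%), with a median of 0.57, or 0.19 with normexp background correction. Cd79b, of the B cell receptor, was higher by 0.80 (adjusted p = 0.142). Measured as the median of the tested members relative to their mean over the 12 arrays, the B cell level lay between -0.65 and -0.21 on the wild-type arrays and between -0.03 and 0.31 on the knockout arrays; 3 of the 12 B cell genes listed were not above background often enough to be tested. All 10 class II antigen presentation genes were higher with a median of 0.64, but 2 did not overlap (background 13.2%) and the median was 0.28 without knockout array 2. T and NK cell genes were higher in 15 of 19 with a median of 0.45, but 1 did not overlap, below the background share; the median was 0.09 without knockout array 2, 0.72 without wild-type array 3 and -0.23 under vehicle. Of 20 macrophage and Kupffer cell genes, 8 were higher and 12 lower, and in none did the groups stand apart; the median of -0.04 became 0.21 without wild-type array 3 and 0.20 without knockout array 3. The part of these cells in the mitosis and matrix differences was not tested.

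Cytochromes and esterases that handle drugs and lipids were lower in the knockout. All 7 tested genes of the 9 listed for Cyp3a and the pregnane X receptor were lower, and in all 7 the groups did not overlap (background 15.2%); their median was -0.60, and -0.54 without wild-type array 3. Cyp3a11, the main drug-oxidising P450 of mouse liver, stood at 8.27, 7.45 and 7.95 in the wild type and at 7.21, 7.01 and 6.77 in the knockout. The lowest wild-type array was still above the highest knockout array, and the difference was -0.89 (SE 0.23, adjusted p = 0.156). Cyp3a16 was lower by 0.91 and Nr1i2, which encodes the receptor itself, by 0.32. Cyp3a genes are close paralogs, so their probes may share signal and they are not independent readings.

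The Cyp2b and Cyp2c group, together with the receptor CAR, had 16 of 17 genes lower, 9 of them without overlap (background 15.2%), and a median of -1.2. This median was -0.78 without wild-type array 3. The female-biased Cyp2b genes turned: Cyp2b9 was lower by 1.04 with that array and higher by 0.90 without it, and Cyp2b10 lower by 0.72 and higher by 0.94. The Cyp2c genes did not depend on it in the same way. Cyp2c29, an abundant epoxygenase, stood at 7.36, 7.36 and 7.58 against 6.33, 6.04 and 6.76, a difference of -1.06 (SE 0.19, adjusted p = 0.129), and -0.98 without array 3. Cyp2c38 was lower by 1.22 (adjusted p = 0.136) and Cyp2c54 by 1.60, or 1.24 and 1.5 without it. These too are close paralogs that may share probe signal.

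Ces1d belongs to a family of 13 carboxylesterase genes tested, of which 10 were lower, 4 without overlap (background 15.2%), with a median of -0.42. Without wild-type array 3 the median was -0.56 and 7 did not overlap (background 20.4%). Ces2a, which hydrolyses triglycerides and drugs, stood at 4.55, 4.37 and 4.21 in the wild type and at 3.44, 2.94 and 3.13 in the knockout. The groups lay well apart, and the difference of -1.21 (SE 0.17) did not pass (adjusted p = 0.115). Ces1g was lower by 0.66. Of 19 glutathione S-transferases, 16 were lower, with a median of -0.19. In 5 the groups did not overlap (background 15.2%), and in 8 without wild-type array 3 (background 20.4%). The smallest p were those of Gstt2, at -0.82, and Gstt1, at -0.57 (adjusted p = 0.136 and 0.19).

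**Figure D3:**
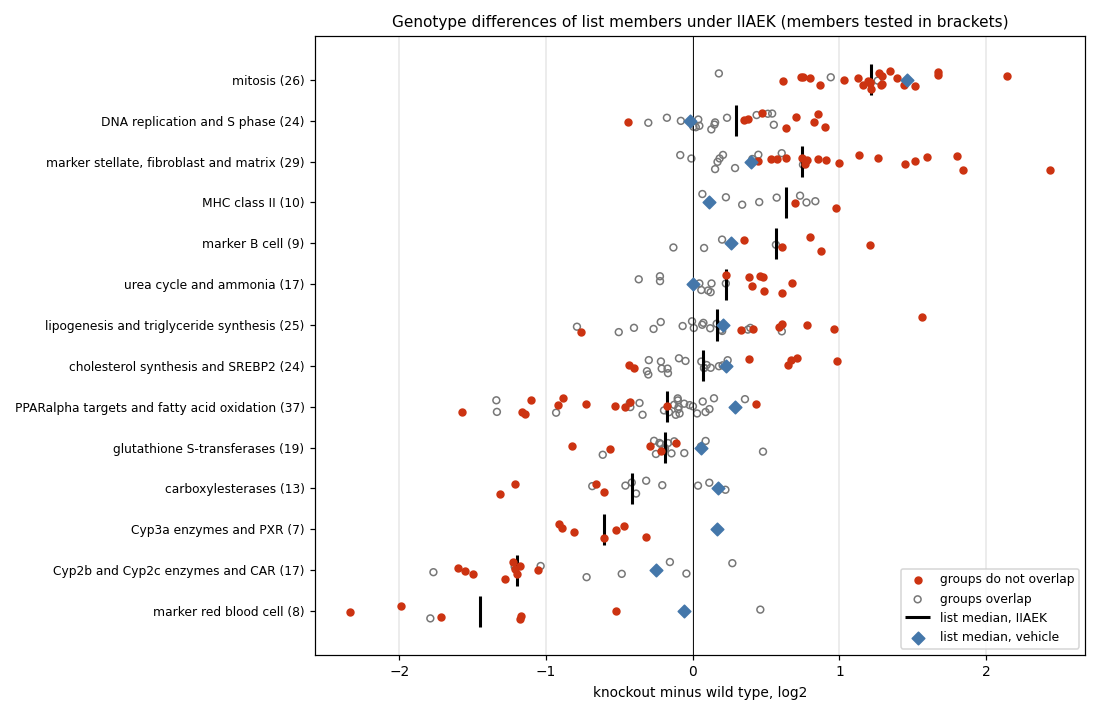
Knockout minus wild type difference under IIAEK (log2, horizontal axis) of every tested member of the gene groups named on the vertical axis, 1 point per gene; filled points are genes whose 3 knockout and 3 wild-type arrays do not overlap, bars are group medians and diamonds the medians under vehicle. The 26 mitosis genes lie above 0 (Ndc80 at 0.18, or -0.04 with normexp background correction) and all 7 genes of the Cyp3a and PXR group below 0.

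Targets of PPARalpha, the receptor that drives fatty acid oxidation in fasting, were mostly lower: 29 of 37, with 11 lower and 1 higher without overlap (background 15.2% and 13.2%) and a median of -0.18. The separate slides gave medians of -0.05 and -0.38. Cyp4a14, a fatty acid omega-hydroxylase and classical target of the receptor, stood at 2.02, 2.86 and 2.51 in the wild type and at 1.44, 0.83 and 0.41 in the knockout. That is a difference of -1.57 (SE 0.31, adjusted p = 0.136), and its neighbours Cyp4a31 and Cyp4a10 were lower by 1.17 and 1.14. Ppargc1a, the coactivator of mitochondrial and fasting genes, stood at 1.51, 1.19 and 1.22 against 0.55, 0.65 and 0.55 and was lower by 0.73 (adjusted p = 0.126).

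Lipogenic genes leaned the other way. Of 25 tested, 17 were higher, 7 higher and 1 lower without overlap (background 13.2% and 15.2%), and the median was 0.16. Without wild-type array 3 the median was 0.08, with 7 higher and 3 lower without overlap (background 17.7% and 20.4%). The separate slides gave medians of 0.38 and 0.09. Fasn, fatty acid synthase, stood at 3.85, 4.22 and 4.11 against 5.44, 5.04 and 4.59, a difference of 0.96 (SE 0.23, adjusted p = 0.15). Mogat1, which makes diacylglycerol, stood at -2.53, -2.18 and -2.79 against -1.40, -1.12 and -0.31, a difference of 1.56 that its other probe gave as 3.12. This gene lies on chromosome 1, 37 tested genes before Akp3, near the called gene Utp14b, which lies 35 before. Srebf1, the transcription factor of lipogenesis, was higher by 0.59. Pnpla3, a lipase that is itself a target of SREBP1, was lower by 0.76.

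Cholesterol genes were split rather than shifted. Of 24 genes of cholesterol synthesis and SREBP2, 13 were higher and 11 lower, 5 and 2 of them without overlap (background 13.2% and 15.2%). The median was 0.07, or -0.06 without wild-type array 3. Hmgcs1, an early enzyme of the pathway, and Cyp51, which demethylates lanosterol, were lower by 0.44 and 0.40 (adjusted p = 0.209 for each).

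Sterol export and uptake genes were higher in 12 of 15 with a median of 0.16. Lrp1, a scavenger of lipoprotein remnants, was higher by 0.78 (adjusted p = 0.127) and hepatic lipase, Lipc, lower by 0.50. The cholesterol exporters Abca1, Abcg5 and Abcg8 differed by 0.28, 0.15 and 0.49, none past the adjusted threshold. Npc1l1, the intestinal cholesterol importer, was above background on 1 of the 12 arrays and was not tested. Of 14 apolipoprotein genes, 12 were lower, 3 without overlap (background 15.2%), or 6 without wild-type array 3 (background 20.4%). The median of the 14 was -0.15, or 0.00 after quantile normalization and -0.07 without knockout array 2. The exception of size was Apoa4, an apolipoprotein of fasting liver and gut, at 4.19, 4.98 and 4.24 against 7.27, 7.56 and 5.43 (difference 2.29, SE 0.55, adjusted p = 0.15).

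Bile acid synthesis showed no shift as a group, with 8 genes higher, 7 lower and a median of 0.01. Cyp7a1, which commits cholesterol to bile acids, stood at -6.20, -4.19 and -7.65 in the wild type and at -4.60, -2.65 and -2.99 in the knockout. The groups overlapped, the probe was above background on 1 of the 3 wild-type arrays, and the difference of 2.60 had an SE of 0.88 (adjusted p = 0.197). Cyp7a1 thus entered the test only through the knockout, and its difference ranged from 0.61 to 3.51 over the alternative settings. Cyp8b1, which sets the share of cholic acid, stood at -7.62, -2.78 and -7.72 against -3.08, -2.95 and -2.53, again above background on 1 wild-type array. It too entered only through the knockout, and its difference ranged from 0.65 to 4.82 over these settings. Cyp2c70, which makes muricholic acids, was lower by 0.50. Of the receptors and transporters, Fgfr4, the receptor of the gut signal that restrains bile acid synthesis, was higher by 0.68 (adjusted p = 0.137). The bile acid receptor FXR, Nr1h4, differed by -0.23, its target Nr0b2 by -0.65, and the uptake carrier Slco1b2 by -0.47.

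Genes of the circadian clock were uneven. Of 15 core clock genes, 5 were higher and 2 lower without overlap (background 13.2% and 15.2%) and the median was 0.33. Of 13 output genes, 5 were higher without overlap and the median was 0.27. Dbp, a clock-driven transcription factor of liver metabolism, stood at 0.46, -0.01 and -0.50 in the wild type and at 1.32, 2.14 and 4.68 in the knockout. The third knockout array was far above the other 2, and the difference was 2.73 with it and 1.75 without it. Ciart, a circadian repressor, stood at -5.25, -5.53 and -5.26 against -4.03, -3.54 and -1.25, with the same array highest, and was above background on 1 wild-type array. Ciart thus entered the test only through the knockout, and its difference ranged from 0.83 to 3.0 over the alternative settings. Clock itself was lower by 0.50 and Wee1, a clock-controlled kinase that holds back mitosis, higher by 0.78 (adjusted p = 0.149 and 0.148). The hour of collection is not in the labels, so whether it differed between the arrays was not tested.

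The E-box CACGTG, a palindrome read the same on both strands, is the letter pattern that CLOCK and BMAL1 bind. It was found in the 250 bases before the start of 3 of 11 core clock genes (27.3%) and 2 of 12 output genes (16.7%), against 6.86% of the 27025 genes in the table. Ciart holds 3 of them and is shown for that reason (RefSeq, GRCm38.p6, chr3:95882229-95882478, minus strand), with the E-boxes in capitals. Dbp holds none in this window.
Ciart: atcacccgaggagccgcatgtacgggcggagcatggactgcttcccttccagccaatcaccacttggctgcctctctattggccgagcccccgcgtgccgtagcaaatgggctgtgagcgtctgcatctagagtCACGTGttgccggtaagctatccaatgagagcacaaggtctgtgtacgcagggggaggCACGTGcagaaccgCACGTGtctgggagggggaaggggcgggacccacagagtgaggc

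Among immediate early genes, 17 of 26 were higher, the median was 0.11, and 4 stood higher and 3 lower without overlap. These counts lie near the background of 13.2% and 15.2%. Gadd45g, a growth arrest and DNA damage gene, stood at 4.95, 4.70 and 5.08 in the wild type and at 3.80, 3.62 and 3.46 in the knockout. The gap between the groups was wider than the spread in either, and the difference of -1.28 (SE 0.15) missed the threshold with an adjusted p of 0.0832. Its relatives Gadd45b and Gadd45a were lower by 1.21 and higher by 0.81. Dusp1, a phosphatase of MAP kinases, was lower by 0.79 (adjusted p = 0.115). Egr2 stood at -3.83, -4.01 and -3.54 against -2.55, -1.69 and -2.65.

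Endotoxin-sensing and NF-kappaB genes were higher in 23 of 29, with a median of 0.22. In 8 they were higher without overlap and in none lower (background 13.2% and 15.2%). Without wild-type array 3, 14 were higher and 1 lower without overlap (background 17.7% and 20.4%). Without knockout array 2 the median was 0.14, and the separate slides gave 0.34 and 0.11. Nfkb2, a subunit of the non-canonical pathway, was higher by 0.64 and Irak3, an inhibitory kinase of Toll-like receptor pathways, by 0.68 (adjusted p = 0.151 and 0.169). Interferon-stimulated genes were higher in 19 of 22 with a median of 0.21, and 1 did not overlap (background 13.2%). Without wild-type array 3 the median was 0.44 and 10 did not overlap (background 17.7%). Without knockout array 2 the median was 0.02. Acute phase genes showed no common direction, with 10 higher, 14 lower and a median of -0.06, or 0.04 without wild-type array 3. The acid glycoprotein genes Orm1 and Orm2, which are close paralogs, were lower by 0.61 and 0.62.

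Nitrogen metabolism leaned upward: 14 of 17 urea cycle and ammonia genes were higher, 8 without overlap (background 13.2%), with a median of 0.23. Sds, serine dehydratase, stood at 4.67, 4.18 and 4.38 against 5.11, 5.01 and 4.94 and was higher by 0.61 (adjusted p = 0.154), and Asl, argininosuccinate lyase, was higher by 0.40. In the IGF axis, Igfbp3, the main carrier of circulating IGF, stood at 2.73, 2.72 and 2.49 against 3.54, 3.33 and 3.39, a difference of 0.77 (adjusted p = 0.115). Igfbp1, the binding protein of fasting, was lower by 1.05 with an adjusted p of 0.219. Gluconeogenic genes had a median of 0.03, with 2 higher and 5 lower without overlap (background 13.2% and 15.2%).

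Red cell genes were lower in 7 of 8, 6 of them without overlap (background 15.2%), with a median of -1.45. Without wild-type array 3 the median was -0.79 and 6 still did not overlap (background 20.4%). Hba-a2, an alpha globin, stood at 7.66, 7.18 and 8.58 in the wild type and at 6.73, 6.45 and 6.73 in the knockout. Hba-a1 encodes the same protein and its probe gave -1.18, close to the -1.17 of Hba-a2, so these count as 1 reading. Alas2, the haem synthesis enzyme of red cell precursors, was higher by 0.46. Measured in the same way as for B cells, red cell levels were -0.37 to 1.43 on the wild-type arrays and -1.22 to -0.88 on the knockout arrays. The part of blood left in the tissue in other differences was not tested.

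**Figure D4:**
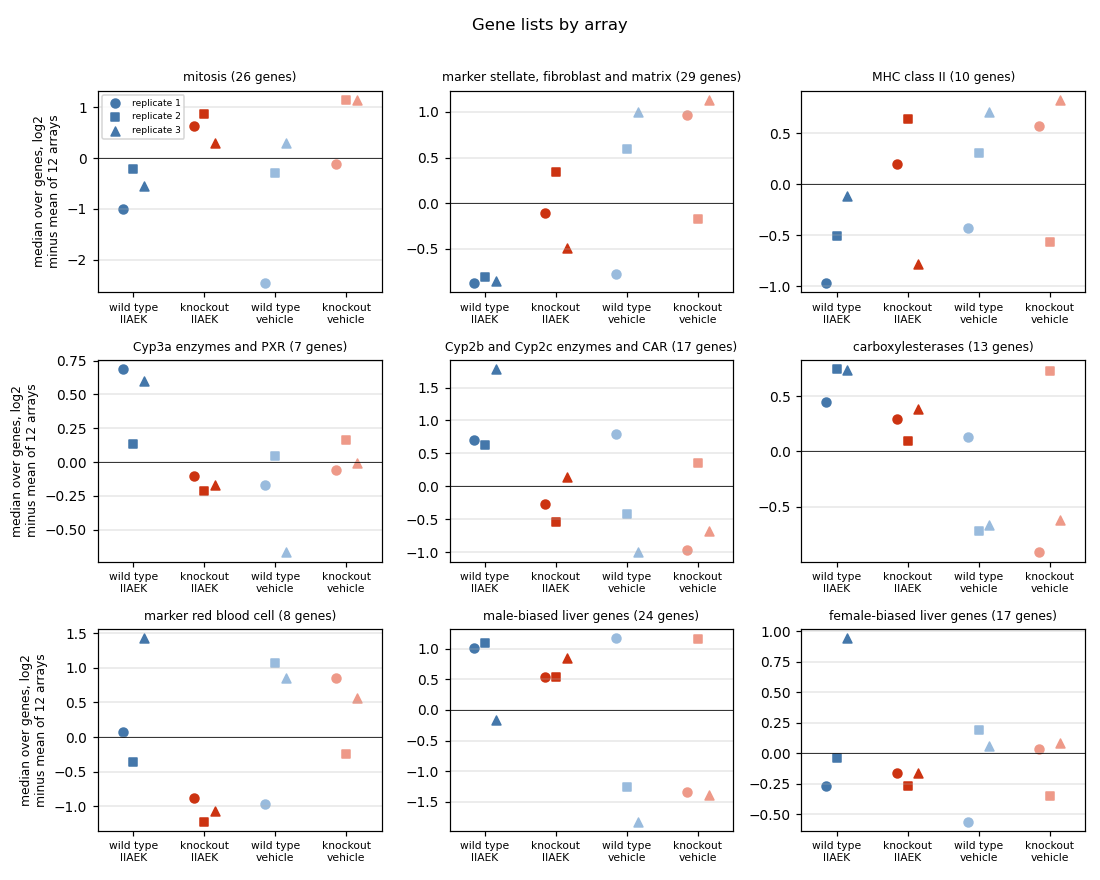
Level of 9 gene groups on each of the 12 arrays, as the median over members of log2 level minus the member's mean over the 12 arrays (vertical axis), 1 point per array with its shape giving the replicate, and arrays grouped by genotype and treatment. Mitosis genes lie between 0.31 and 0.87 on the IIAEK knockout arrays and between -0.99 and -0.22 on the IIAEK wild-type arrays, while the male-biased genes of wild-type IIAEK array 3 lie at -0.17 against 1.01 and 1.09 on the other 2.

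The genotypes were also compared in the mice given vehicle, where the arrays of a group spread more (median SD per gene 0.360 in the wild type and 0.264 in the knockout). Male-biased genes were high on wild-type vehicle array 1 and knockout vehicle array 2, at 1.17 and 1.15, and low on the other 4, at -1.26 to -1.82, so these arrays differed within each genotype. There 0 genes passed the adjusted threshold in limma and 606 (2.37%) had an unadjusted p under 0.05; the test of the difference between the treatments' genotype effects likewise gave 0, with 388 (1.52%) at an unadjusted p under 0.05. Among the 7262 genes that stood apart under IIAEK, 6316 (87.0%) had the same sign under vehicle, against 72.6% of all 25581 genes. Under vehicle alone the knockout was higher without overlap in 2.82% of genes and lower in 5.65%. In 299 genes (1.17%) the knockout was higher without overlap under both treatments, in 516 (2.02%) lower under both, and in 25 (0.0977%) the directions were opposite.

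For 4 of the called genes the vehicle arrays gave a difference in the same direction with no overlap: 2.73 (SE 0.55) for Ugt1a10, 1.62 (SE 0.23) for Lad1, -1.33 (SE 0.31) for Utp14b and -1.5 (SE 0.59) for the dim transcript ENSMUST00000153653. Slc2a4 and Ces1d differed by 0.23 and 0.17 there, with an SE of 0.70 and 0.84. Pam stood at -2.79, -1.79 and 0.26 in the vehicle wild type and at -0.26, -0.63 and 0.06 in the vehicle knockout. Wild-type vehicle array 3 thus lay above all knockout vehicle arrays in Pam, and it was also the wild-type array with the highest U79523 (-2.33), Ren1 (-2.30) and Ren2 (3.24). In Lad1, Ugt1a10 and Utp14b the same array stayed on the wild-type side, at 0.19, -0.84 and -3.95. The difference between the treatments did not pass for any of the 9, for example Pam and Ces1d (interaction, limma, adjusted p = 1 for each).

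Of the groups, mitosis kept its direction in all 26 genes under vehicle, with a median of 1.46, but in 3 of them without overlap; wild-type vehicle array 1 had the lowest level of all 12 arrays, -2.46. Matrix genes had a vehicle median of 0.40. Among the medians with the other sign under vehicle were 0.16 for Cyp3a, 0.17 for carboxylesterases, 0.29 for PPARalpha targets and -0.21 for clock output, where all genes together had -0.07. Cyp3a11 was higher by 0.65 under vehicle, and 5 of the 7 genes of the Cyp3a and PXR group and 7 of the 37 PPARalpha genes had an unadjusted interaction p under 0.05, none passing adjustment. Cyp7a1 was lower by 2.31 under vehicle (SE 1.31), and its interaction of 4.91 did not pass either (adjusted p = 1).

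**Figure D5:**
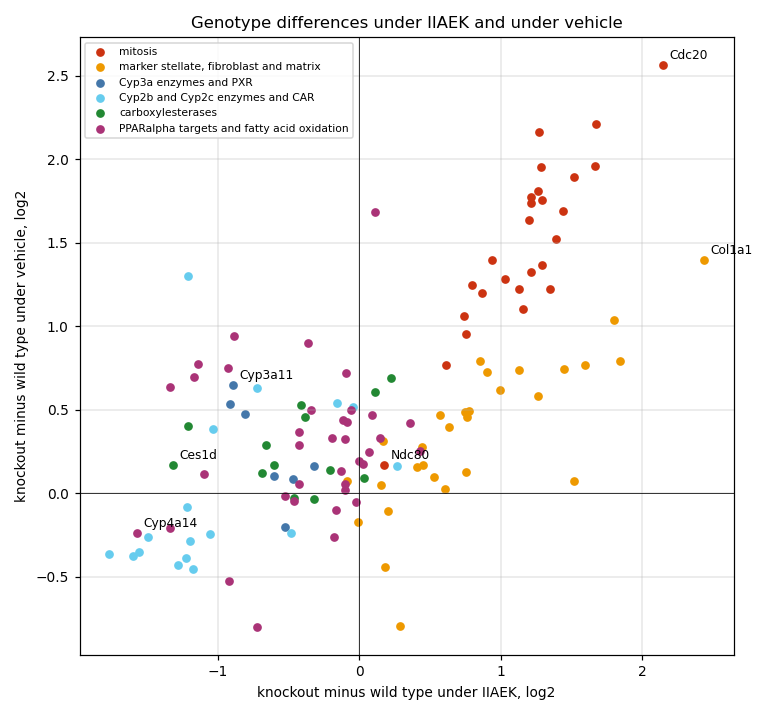
Knockout minus wild type difference under IIAEK (log2, horizontal axis) against the same difference under vehicle (log2, vertical axis), 1 point per tested member of the 6 gene groups that the colours name. The axes share no array; Cdc20 lies at 2.15 and 2.56, Col1a1 at 2.44 and 1.39, and Cyp3a11 at -0.89 and 0.65.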

How the data were processed

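Total liver RNA was hybridised to 1-colour Agilent mouse arrays, 12 in the series and 3 per group. Of these, 6 arrays make the comparison. The deposited files hold, per the file headers, the scanner's processed signal intensity of 62976 spots, background-subtracted by Feature Extraction 10.7.3.1 and not normalized between arrays. The authors' series table holds log2 values centred per probe, with column medians of -0.15 to 0.17 and its normalization not stated, and served as an alternative. Processed intensity was divided by each array's 75th percentile over non-control spots and log2 transformed; spots of a probe were averaged, and the brightest probe stood for a gene. A gene was kept if 1 or both IIAEK groups had its probe well above background on each of their 3 arrays. No probe was saturated, 56.8% to 60.1% of probes were above background on the 6 arrays, and array number limits the precision. limma 3.58.1 (R 4.3.3; lmFit, eBayes, two-sided, Benjamini-Hochberg) was fitted on the 6 IIAEK arrays, on the 6 vehicle arrays with the same genes, and on all 12 for the interaction. The script was tested on simulated data.

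Named genes are those past an adjusted p of 0.05, the phosphatases, the 15 tested genes on either side of Akp3, up to 4 called or the 2 smallest-p members of each gene group, a few sterol and bile acid genes, and genes picked out after their values were seen (Col1a1, Apoa4, Dbp, Per3, Ren1, Ren2, Mki67, Cyp2b13 and others not covered by these rules). The members and lists were chosen with earlier results of these data known. The gene groups are descriptions with counts and medians, not set tests. Replicate 1 of each group was on slide 1, replicates 2 and 3 on slide 2. Gene order and promoters come from RefSeq tables on GRCm38.p6; the file headers name mm9, and no positions were converted. Some members of the gene groups are not reported here by name.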

Additional observations from a re-analysis of the deposited data

Results flagged for a closer look

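In 3 named genes every knockout array differed from every wild-type array in one direction under IIAEK and in the opposite direction under vehicle. Gadd45g was lower by 1.28 under IIAEK (a difference of -1.28) and higher by 1.08 under vehicle, where the wild type stood at 3.27, 3.54 and 3.95 and the knockout at 4.83, 4.95 and 4.23. The difference between these effects was -2.36 and did not pass (limma interaction, adjusted p = 0.437). Cyp3a11 gave -0.89 under IIAEK and 0.65 under vehicle (interaction -1.54, adjusted p = 1). Tagln, which encodes the smooth muscle protein transgelin, gave 0.60 and -0.79: its levels were 1.96, 2.28 and 1.92 in the wild type and 2.80, 2.53 and 2.62 in the knockout under IIAEK, and 3.59, 3.43 and 3.42 against 2.79, 2.56 and 2.72 under vehicle (interaction 1.39, adjusted p = 0.466). Over all tested genes, 25 (0.0977%) stood apart in opposite directions.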

How the results depend on the processing

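For the genotype effect under IIAEK, with 9 genes past the threshold, stricter and looser adjusted p of 0.01 and 0.1 gave 0 and 18. Normexp background correction gave 39 (30 higher, 9 lower; 6 shared with the 9), no filter on dim probes 0 (6313 at an unadjusted p under 0.05), and probes above background on every array 5. The slide as a block gave 2 (Pam, U79523), slide 2 alone 0 (2314 at an unadjusted p under 0.05), all 12 arrays in 1 fit 2 (Lad1 shared) and limma's trend and robust options 21. Quantile normalization, the median shift, the authors' series table, the mean of probes and array weights gave 6 (4 higher, 2 lower), 9, 9, 10 and 8. Leaving out 1 replicate at a time gave 0 to 20: without wild-type array 1, 2 or 3 it was 0, 2 and 4, and without knockout array 1, 2 or 3 it was 0, 6 and 20. The same 9 genes passed after the median shift and in the authors' series table. Under vehicle the fit of all 12 arrays gave 1 gene, and the interaction gave 0 to 1 when replicates were left out (1 without knockout vehicle array 2). No named gene turned its direction past the threshold under these settings. The replicate numbers did not pair the samples (correlations of deviations 0.12, 0.07 and -0.13 for numbers 1, 2 and 3), and the replicate block gave 1 gene, not among the 9. Group counts without wild-type array 3 were added after the data had been seen. Dim genes (Utp14b, AK040229, ENSMUST00000153653 and U79523 among the 9, and Ren1, Cyp7a1, Cyp8b1 and Ciart outside them) are limited by signal over background in 1 group.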

Other observations

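Several further groups had small median differences under IIAEK, although some leaned in 1 direction by count. Of 32 complement and coagulation genes, 15 were higher and 17 lower (median -0.02), and of 25 genes of endoplasmic reticulum stress, 11 and 14 (median -0.06). Cytosolic heat shock genes were lower in 13 of 19 (median -0.15), NRF2 antioxidant genes higher in 7 of 13 (median 0.08), and iron genes higher in 9 of 20 (median -0.03), among them Id1, a target of BMP signalling, lower by 0.67. Of 8 aquaporins tested, 4 were higher and 4 lower; Aqp4, a water channel, was higher by 1.16 with a probe pair that gave 0.45 and 1.16. Rgs12, a regulator of G protein signalling, was higher by 0.85. Endothelial genes were higher in 14 of 20 (median 0.09) and bile duct genes in 9 of 11 (median 0.04). Without overlap, 4 endothelial genes were higher and 2 lower, and 1 bile duct gene was higher and 0 lower. Of the heat shock genes, 2 were higher and 3 lower without overlap (background 13.2% and 15.2% for all these counts). Markers of exocrine pancreas and small intestine were mostly not measurable, with 9 of 21 and 7 of 18 tested.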
